A study of Homo sapiens and Mus musculus with 54 samples.

Results

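The genes described here encode 8 transcription factors of the hepatocyte lineage, namely HNF4A, FOXA1, FOXA2, FOXA3, ONECUT1, PROX1, GATA4 and GATA6. They were taken by name from 19974 protein-coding genes. Each gene is described by the peaks that lie within 50 kb of its RefSeq gene body in 4 ChIP-seq peak lists from HepG2, a human liver cancer cell line. The lists gave 85 of 56739 AhR peaks, 90 of 62761 C/EBPα peaks, 164 of 106666 H3K27ac regions and, in a second H3K27ac experiment, 158 of 97145 regions. AhR is a transcription factor switched on by small ligands, C/EBPα is a liver-enriched factor, and H3K27ac is the acetylated histone found at active regulatory DNA.

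The study asked how AhR senses vitamin B2 and alters liver metabolism. HepG2 cells were taken on day 12, with 2 B2-deficient libraries (B2_minus in the labels) and 2 control libraries for each of AhR and C/EBPα, and 5 B2-deficient and 5 control libraries for H3K27ac. The second H3K27ac experiment had 2 B2-deficient libraries with an AhR inhibitor, 2 B2-deficient libraries with DMSO and 2 control libraries with DMSO. AhR and C/EBPα chromatin was crosslinked with DSG and formaldehyde, H3K27ac chromatin with formaldehyde alone. The remaining 6 HepG2 libraries were inputs, and the 24 mouse libraries were not used here. By their labels, 2 were control inputs for AhR, 2 control inputs for C/EBPα and 2 B2-deficient inputs for both. No HepG2 input is labelled for H3K27ac. Each list covers a whole experiment and holds positions only, with nothing per library. For that reason depth is unknown, and neither B2-deficient with control cells nor inhibitor with vehicle could be compared. All values rest on a single cell line.

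The factors form a network that builds and keeps the hepatocyte state. FOXA proteins are pioneer factors that open liver chromatin during development, and GATA4 and GATA6 act beside them in early endoderm. HNF4A is a nuclear receptor that drives most genes of the mature hepatocyte. ONECUT1 (HNF6) steers the choice between hepatocyte and bile duct cell, and PROX1, a homeodomain factor, is needed for hepatoblasts to spread and for metabolic control. HNF4A has a pair of promoters, of which the downstream one (P1) is the main promoter of adult liver and the upstream one (P2) is used in pancreas and in fetal liver.

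The table of RefSeq promoters used here (GRCh38.p14, the assembly of hg38) held start sites for 5 of the 8 genes, with a pair for HNF4A. FOXA2, PROX1 and GATA4 were not matched in it. The 250 bases before a start are shown for both HNF4A starts, because the upstream one was the only start of the 6 that met a C/EBPα peak in these bases, and for FOXA3 and ONECUT1, which hold the core of the AhR response element, GCGTG. For the upstream HNF4A start the capitals are the 81 bases inside the C/EBPα peak, and in the others they are the matches to GCGTG.
HNF4A upstream start, chr20:44355449-44355698, plus strand: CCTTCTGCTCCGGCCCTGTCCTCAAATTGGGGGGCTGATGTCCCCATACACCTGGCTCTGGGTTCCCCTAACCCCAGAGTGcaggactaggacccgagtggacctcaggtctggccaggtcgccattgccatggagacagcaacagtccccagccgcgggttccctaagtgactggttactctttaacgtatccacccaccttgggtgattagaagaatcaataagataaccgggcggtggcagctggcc
HNF4A downstream start, chr20:44400989-44401238, plus strand: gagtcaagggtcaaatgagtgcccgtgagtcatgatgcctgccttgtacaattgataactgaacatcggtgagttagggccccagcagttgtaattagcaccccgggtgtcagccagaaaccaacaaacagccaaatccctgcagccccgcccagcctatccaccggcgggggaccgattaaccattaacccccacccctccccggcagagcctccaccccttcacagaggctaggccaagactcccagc
FOXA3, chr19:45864076-45864325, plus strand: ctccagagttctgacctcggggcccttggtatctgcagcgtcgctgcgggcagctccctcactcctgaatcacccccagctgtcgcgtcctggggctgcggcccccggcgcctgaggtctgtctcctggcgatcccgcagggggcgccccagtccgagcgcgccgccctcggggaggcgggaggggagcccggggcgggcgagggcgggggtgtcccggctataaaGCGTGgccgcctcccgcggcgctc
ONECUT1, chr15:52790337-52790586, minus strand: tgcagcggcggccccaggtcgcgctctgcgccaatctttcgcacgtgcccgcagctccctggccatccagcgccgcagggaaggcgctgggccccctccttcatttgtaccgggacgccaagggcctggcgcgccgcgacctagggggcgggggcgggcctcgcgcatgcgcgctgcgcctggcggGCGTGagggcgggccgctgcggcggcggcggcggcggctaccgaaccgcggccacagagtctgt

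GCGTG began 24 bases before the FOXA3 start and 64 bases before the ONECUT1 start, so 2 of the 6 windows held it on either strand, against 32.2% of 34961 RefSeq windows of the same length. Neither match lay in an AhR peak. The nearest AhR peak began 9532 bp after the FOXA3 start and 3488 bp after the ONECUT1 start. The letters TTGCNNAA, a C/EBP motif, were in none of the 6 windows, including the 81 bases inside the C/EBPα peak, and in 9.04% of all windows. A motif of the GATA factors (AGATAA) was in 1 of 6, beginning 26 bases before the upstream HNF4A start, against 9.18% of all. The forkhead letters TGTTTAC (2.98% of all windows), the ONECUT letters ATCGAT (0.641%) and the HNF4 letters CAAAGTCCA (0.326%) were in none of the 6. Motifs were searched on both strands and can overlap one another.

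All 8 genes had peaks of every list within 50 kb, as 79.8% of all genes did. By list, 85.4% of all genes had an AhR peak in this window, 88.6% a C/EBPα peak, 90.4% an H3K27ac region of the first experiment and 88.1% one of the second. In number, the median of the 8 genes was 9.5 AhR peaks, against 4 over all genes, 11 C/EBPα peaks, against 4, and 18 H3K27ac regions, against 7. Rows per 100 kb of window scale the counts to window length. A window is the gene body with 50 kb on either side, so a short gene is described mainly by its flanks. By this measure the AhR median was 7.15 at the 8 genes, against 2.58 over all genes. That of C/EBPα was 7.66, against 2.94, and that of H3K27ac 15.1, against 4.72. At least 1 AhR peak overlapping both other marks (C/EBPα and H3K27ac) was present at 7 of the 8 genes, all but FOXA2, and at 62.2% of all genes.

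**Figure D1:**
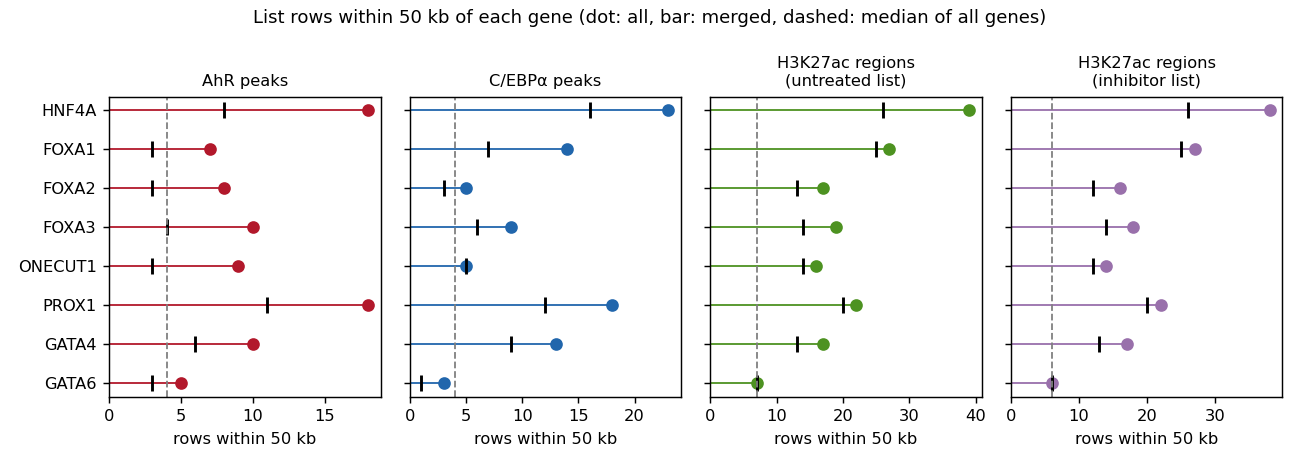
Number of list rows within 50 kb of each of the 8 genes (x axis) in the AhR, C/EBPα and 2 H3K27ac lists. Dots give all rows, black bars the rows merged from 2 or more peaks, and the dashed line the median of 19974 genes. HNF4A and PROX1 stand highest for AhR at 18 each, and GATA6 lowest in every list.

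HNF4A (gene ID 3172, chromosome 20, 44355699 to 44434596 in hg38) carried the most rows of the 8 genes. It had 18 AhR peaks, a number reached by 2.40% of all genes, 23 C/EBPα peaks (1.19% of genes) and 39 H3K27ac regions (1.74% of genes). HNF4A was the nearest protein-coding gene for 15 of the 18 AhR peaks, 15 of the 23 C/EBPα peaks and 30 of the 39 H3K27ac regions. The rows were uneven along the gene. The 33.4 kb from the downstream start to the gene end held 11 AhR peaks, 7 C/EBPα peaks and 20 H3K27ac regions, while the 45.5 kb between the starts held 2, 5 and 6. The stretch between the starts, largely shared with the antisense RNA gene HNF4A-AS1, thus had fewer AhR peaks and H3K27ac regions than the shorter stretch after the downstream start.

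The promoters of HNF4A differed in what lay nearest. Before the upstream start a single C/EBPα peak, at 44355283 to 44355529, covered positions -416 to -170 relative to the start. A merged AhR peak at 44352116 to 44352331 with an H3K27ac region lay 3368 bp away. The gene nearest to this AhR peak and its region was R3HDML. Near the downstream start no C/EBPα peak lay within 5440 bp. There, 4 AhR peaks followed each other at 44404506 to 44404796, 44404933 to 44405209, 44405346 to 44405579 and 44405888 to 44406236, beginning 3267 bp after the start. The first 2 of them met an H3K27ac region, the other 2 met neither list, and none met a C/EBPα peak. Farther into the gene, 5 AhR peaks met both lists, and the one chosen by the rule for named sites lay at 44411306 to 44411514. The 2 AhR peaks between the starts, at 44394543 to 44394777 and 44395563 to 44395770, met a C/EBPα peak and no H3K27ac region.

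**Figure D2:**
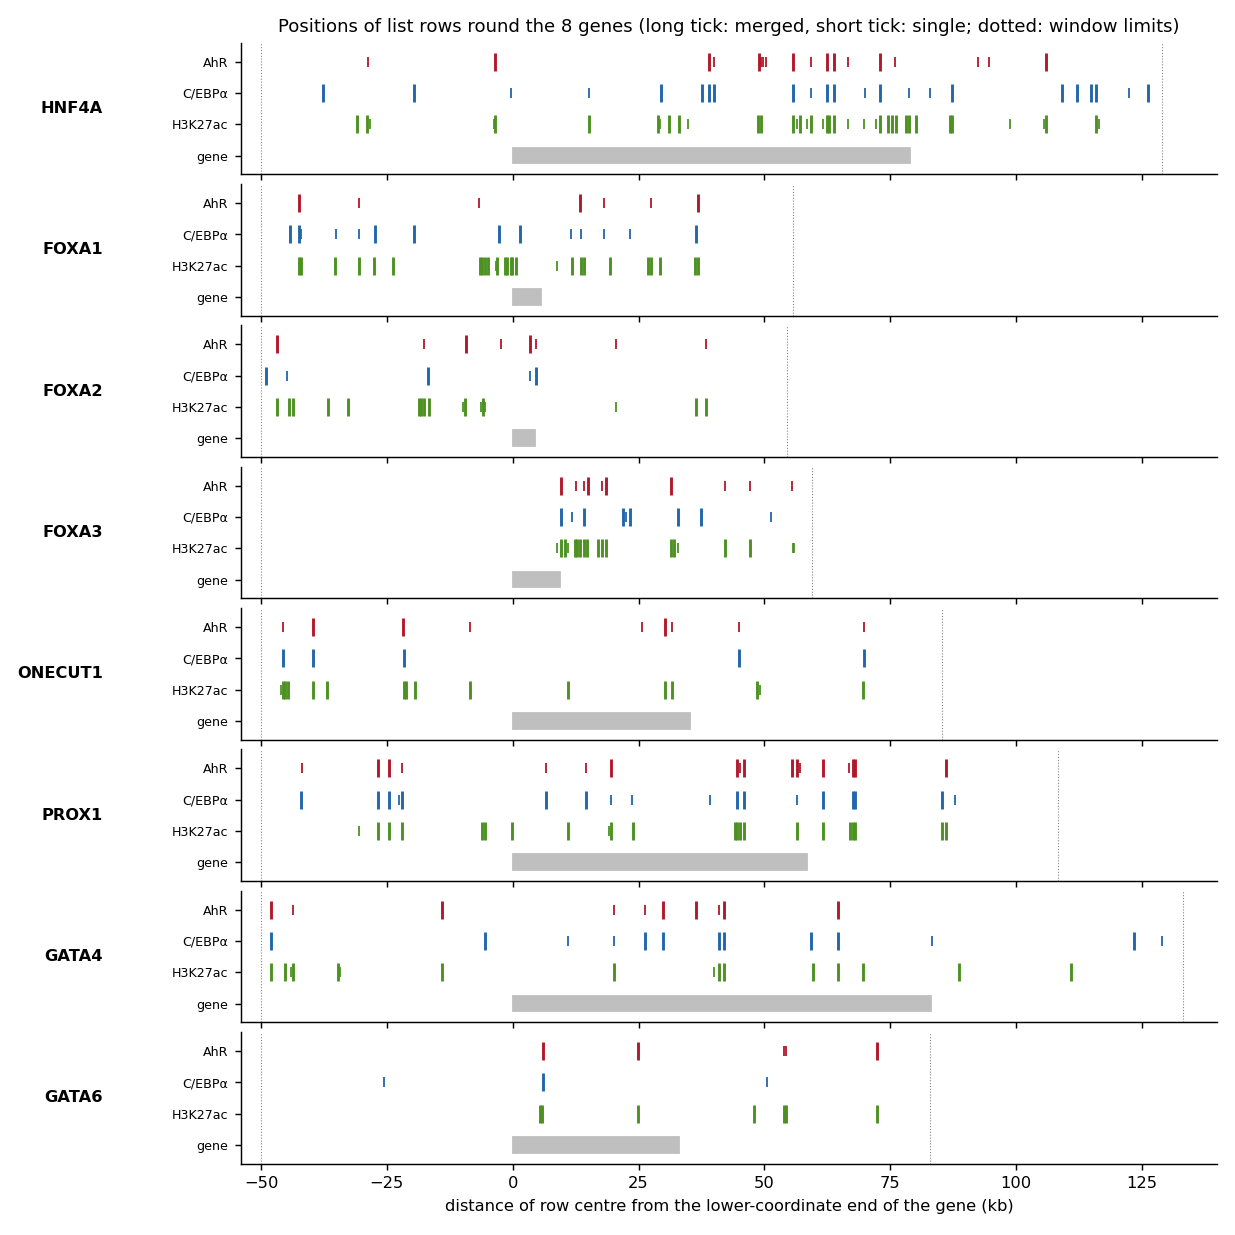
Row centres of the AhR, C/EBPα and first H3K27ac lists round each gene, as distance in kb from the lower-coordinate end of the gene (grey bar). Long ticks are merged rows, short ticks single ones and dotted lines the 50 kb limits. FOXA3 has no row of any list on its lower side, and FOXA1 has a block of H3K27ac regions at its lower end with no AhR peak inside the gene. Within 3 kb of a start the H3K27ac lists hold few regions at any gene.

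Among the pioneer factor genes, FOXA1 (gene ID 3169, chromosome 14, 37589552 to 37595249, minus strand) had 27 H3K27ac regions, 14 C/EBPα peaks and 7 AhR peaks. Its density of H3K27ac, 25.5 regions per 100 kb, was the highest of the 8 genes and was reached by 1.58% of all genes. For AhR the density was 6.62 per 100 kb, reached by 11.9% of genes. No AhR peak lay in FOXA1, and the nearest was 6539 bp beyond its lower end, which is its 3′ end. At that end 4 H3K27ac regions lay within 1 kb, at 37588349 to 37588610, 37588987 to 37589220, 37589353 to 37589584 and 37590149 to 37590382, and none of the 4 met an AhR or a C/EBPα peak. The part of FOXA1 within 3 kb of its start lies where the H3K27ac lists hold few regions at any gene. A lack of regions in that part says nothing about acetylation. The AhR peak chosen by the rule, at 37602892 to 37603112, met both lists 7643 bp before the start. FOXA1 was the nearest gene for only 1 of the 7 AhR peaks, as MIPOL1 and TTC6 overlap its window. It was the nearest for 2 of the 14 C/EBPα peaks and 11 of the 27 H3K27ac regions. The densities are therefore those of the window and not of FOXA1 alone.

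FOXA2 (gene ID 3170, chromosome 20, 22580998 to 22585490) had 8 AhR peaks, 5 C/EBPα peaks and 17 H3K27ac regions, and no other protein-coding gene lay in its window. A single AhR peak at 22585441 to 22585659 spanned its higher end together with a C/EBPα peak of merge number 3 at 22585443 to 22585660. FOXA2 is transcribed towards lower coordinates, so that end is its 5′ end. A merged AhR peak inside the gene, at 22584249 to 22584529, also met a C/EBPα peak. These were the only 2 of its 8 AhR peaks with C/EBPα, and neither met an H3K27ac region. Both lie close to the 5′ end, where the H3K27ac lists hold few regions at any gene, so their lack of a region says nothing about acetylation. Of the other 6 AhR peaks, 5 met an H3K27ac region and none met C/EBPα. The nearest H3K27ac region lay 5277 bp from FOXA2. The neighbouring long non-coding RNA gene LINC00261 held 9 of the 17 H3K27ac regions and 3 of the 8 AhR peaks.

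FOXA3 (gene ID 3171, chromosome 19, 45864326 to 45873797) had 10 AhR peaks, 9 C/EBPα peaks and 19 H3K27ac regions, and all of them lay after its start. The 50 kb on the upstream side held 0 rows of each of the 4 lists. All 10 AhR peaks met an H3K27ac region and 2 met a C/EBPα peak. The one nearest the gene, at 45873858 to 45874073, was merged, met both lists and lay 61 bp past the 3′ end. Other genes crowd this window, namely RSPH6A, SYMPK, IRF2BP1, MYPOP and NANOS2, and FOXA3 was the nearest gene for 3 of the 10 AhR peaks.

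ONECUT1 (gene ID 3175, chromosome 15, 52755053 to 52790336, minus strand) had 9 AhR peaks, 5 C/EBPα peaks and 16 H3K27ac regions. Each of its 5 C/EBPα peaks had a merge number of 3 and met an AhR peak, and none lay inside the gene. ONECUT1 was the nearest protein-coding gene for 7 of the 9 AhR peaks, 3 of the 5 C/EBPα peaks and 10 of the 16 H3K27ac regions. For the rest it was ATOSA. The AhR peak chosen by the rule, at 52733056 to 52733484, was merged, met both lists and lay 21569 bp beyond the 3′ end. Inside the gene there were 3 AhR peaks, of which 2 met an H3K27ac region. They lay at 52785119 to 52785463 and 52786586 to 52786848.

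PROX1 (gene ID 5629, chromosome 1, 213983151 to 214041510) had 18 AhR peaks, 18 C/EBPα peaks and 22 H3K27ac regions. Its AhR density of 11.4 peaks per 100 kb was the highest of the 8 genes and was reached by 1.68% of all genes. Of the 18 AhR peaks, 13 met a C/EBPα peak and 10 met both lists, whereas at HNF4A, with as many AhR peaks, 7 met a C/EBPα peak and 5 met both. Merged peaks made up 11 of the 18. The AhR peak chosen by the rule lay inside the gene at 214002553 to 214002798. Past the gene, at 214050632 to 214050853 and 214051003 to 214051229, 2 neighbouring merged AhR peaks also met both lists. An H3K27ac region at 213982932 to 213983205 spanned the lower end of the gene. PROX1 was the nearest protein-coding gene for all 18 AhR peaks.

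The GATA genes differed from each other. GATA4 (gene ID 2626, chromosome 8, 11676935 to 11760002) had 10 AhR peaks, 13 C/EBPα peaks and 17 H3K27ac regions, with 7 of the AhR peaks inside the gene. Of the 10 AhR peaks, 5 met both lists and 6 were merged. The one chosen by the rule lay in the gene at 11718744 to 11719101. The 5.46 AhR peaks per 100 kb at GATA4 were reached by 19.0% of all genes.

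GATA6 (gene ID 2627, chromosome 18, 22169589 to 22202528) had 5 AhR peaks, 3 C/EBPα peaks and 7 H3K27ac regions, the fewest of the 8 genes in each list. These numbers were not unusual, since 41.9% of all genes had at least 5 AhR peaks, 68.1% at least 3 C/EBPα peaks and 51.7% at least 7 H3K27ac regions. All 5 AhR peaks met an H3K27ac region. One of them, at 22175388 to 22175614, also met a C/EBPα peak, of merge number 3, and began 5799 bp after the GATA6 start. No AhR peak lay on the upstream side of GATA6.

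Of the 85 AhR peaks of the 8 genes, 30 met both lists (35.3%, 95% Wilson interval 26.0 to 45.9), against 41.1% of the whole list. A further 35 met an H3K27ac region only (41.2%, interval 31.3 to 51.8), against 29.5% of the whole list. A C/EBPα peak only was met by 11 (12.9%, interval 7.38 to 21.7), against 14.2%, and neither by 9 (10.6%, interval 5.67 to 18.9), against 15.1%. The whole-list share lay outside the interval for H3K27ac only, and inside it for the other classes. Within 3 kb of the protein-coding starts used here, where the H3K27ac lists hold few regions, lay 9.51% of all AhR peaks. Of the 85 AhR peaks 1 (1.18%) was counted there. The starts used lack those of FOXA2, PROX1 and GATA4, so 2 AhR peaks close to the FOXA2 5′ end are missed. With these shares the classes are not compared at like distances from starts. How much of the difference this makes was not tested. The intervals cover counting error over peaks, and neighbouring peaks are not independent, so they are too narrow. No test of these differences was run.

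**Figure D3:**
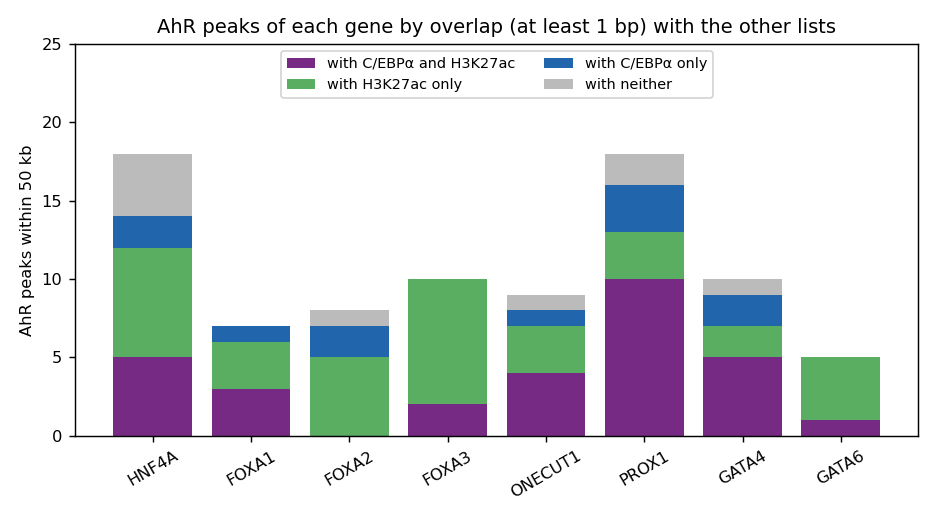
AhR peaks within 50 kb of each gene (y axis) by what they meet with an overlap of at least 1 bp. PROX1 has 10 peaks with both lists, FOXA2 has 0, and at FOXA3 8 of 10 peaks meet an H3K27ac region only.

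The merge number at the end of a peak name is read as the number of peaks merged into it. Near the 8 genes 22 of the 30 AhR peaks with both partners were merged (73.3%, 95% Wilson interval 55.6 to 85.8) and 19 of the other 55 (34.5%, interval 23.4 to 47.7). In the whole list these shares were 63.8% and 27.3%. C/EBPα peaks of merge number 3 near the 8 genes met an AhR peak in 27 of 39 cases (69.2%), against 76.7% over the whole list. Those of merge number 2 did so in 6 of 20 (30.0%), against 43.6%, and those of merge number 1 in 8 of 31 (25.8%), against 27.7%.

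The peaks were mostly distal, as they were in the whole lists. Of the rows near the 8 genes, 1.18% (AhR), 8.89% (C/EBPα) and 3.05% (first H3K27ac list) lay within 3 kb of a start used here. The starts used cover 15812 of 19974 protein-coding genes and lack those of FOXA2, PROX1 and GATA4. AhR and C/EBPα peaks at the FOXA2 5′ end are therefore missed, and these shares can be too low. Over the whole lists these shares, also by row centre, were 9.51%, 11.7% and 1.12%. None of the 6 start sites had an AhR peak within 3 kb, while 25.6% of 22132 protein-coding start sites did. For C/EBPα it was 1 of 6, the upstream HNF4A start, against 33.8%. For H3K27ac it was 1 of 6, FOXA1, where a region reached within 2822 bp, against 4.94%, and in the inhibitor list it was again FOXA1 alone, against 4.75%. Inside the window of 250 bases before to 50 after the start, 7.02% of all start sites had an AhR peak, 9.99% a C/EBPα peak, 1.11% an H3K27ac region of the first list and 1.08% one of the second, and of the 6 starts only the upstream HNF4A start had any, its C/EBPα peak. FOXA2, PROX1 and GATA4 are not among these starts, and FOXA2 is the gene with an AhR peak across its 5′ end. Within 1 kb of either gene end, AhR peaks lay at 2 of the 8 genes (FOXA2 and FOXA3), against 18.4% of all genes, and C/EBPα peaks at 4 (HNF4A, FOXA2, FOXA3 and GATA4), against 24.8%. H3K27ac regions lay there at 4 (HNF4A, FOXA1, FOXA3 and PROX1), against 15.2% in the first list and 14.5% in the second.

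The H3K27ac lists were thin round start sites in general. The first list had 1190 regions with a centre within 3 kb of a protein-coding start and 7748 from 3 to 6 kb, a ratio of 0.154. For the second list this ratio was 0.157, while it was 1.70 for AhR and 2.06 for C/EBPα. The first H3K27ac list had 0.452 rows per bp of distance in the last 500 bp inside 3 kb and 2.93 in the first 500 bp outside it. What made this step was not tested. The lack of a listed H3K27ac region at the HNF4A, FOXA2, FOXA3, ONECUT1 and GATA6 starts says nothing about acetylation at those places.

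**Figure D4:**
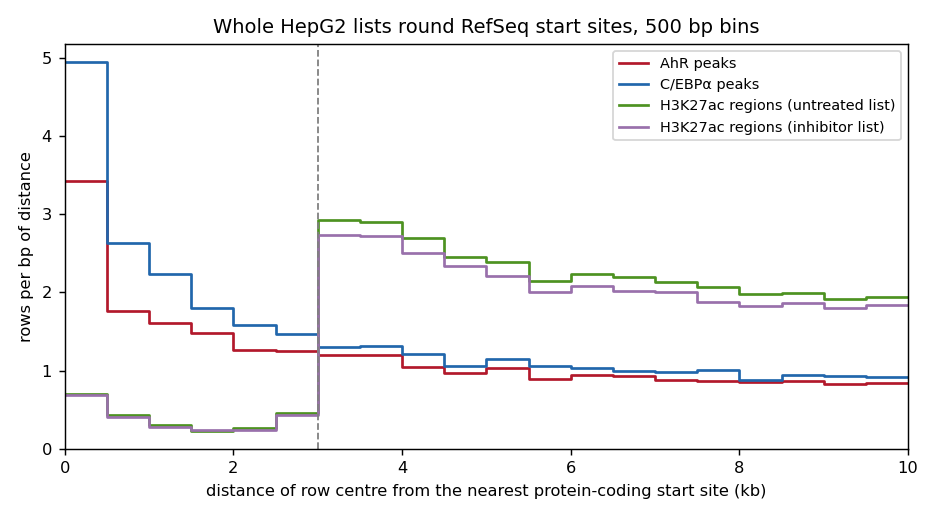
Rows per bp of distance between the row centre and the nearest protein-coding start site (kb, 500 bp bins), over the whole HepG2 lists. AhR and C/EBPα are highest next to the start, while both H3K27ac lists step up at 3 kb (dashed line), from 0.452 to 2.93 rows per bp in the first list.

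The H3K27ac lists of both experiments were compared at these genes. Identical coordinates were found for 157 of the 164 regions of the first list (95.7%, 95% Wilson interval 91.5 to 97.9), against 87.4% over the whole list. An overlap of at least 1 bp gave the same 95.7%, so no region was shared with shifted edges. Whether the lists were called separately is not stated, and their likeness is not taken as a repeat of the measurement. All 27 regions at FOXA1 and all 22 at PROX1 were in both lists. The 7 regions listed in the first experiment alone were 2 at ONECUT1 and 1 each at HNF4A, FOXA2, FOXA3, GATA4 and GATA6. Of these 7, 4 met an AhR peak (57.1%, 95% Wilson interval 25.05 to 84.18) and none a C/EBPα peak. Over the whole list 23.2% of such regions met an AhR peak, which lay below this interval. Among all 164 first-list regions near the 8 genes, 66 met an AhR peak (40.2%), a share inside the interval. With only 7 regions, these shares do not show that AhR peaks are more frequent among regions missing from the second list, and no test was run. The 4 lay at 22619335 to 22619605 near FOXA2, 52746372 to 52746633 near ONECUT1, 11662695 to 11662993 near GATA4 and 22223709 to 22223992 near GATA6. Every AhR peak of the 8 genes that met both lists met an H3K27ac region of the second list too, 30 of 85. One region, at 11644583 to 11644841 near GATA4, was listed in the second experiment alone. Neither list separates its libraries, so these differences do not compare inhibitor with vehicle or B2-deficient with control cells.

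Other transcription factor genes of the hepatocyte network were counted in the same way. All 15 of a list that included CEBPA, NR5A2 and NR1H4 had peaks of every list, as the 8 genes had. The median AhR number was 9.5 at the 8 genes, against 10 at the 15, and that of C/EBPα was 11 in both. For H3K27ac the median was 18 regions at the 8 genes, against 15 at the 15, in the first list and 17.5, against 12, in the inhibitor list. Per 100 kb these H3K27ac medians were 15.1, against 10.5, and 14.6, against 8.76. For AhR the median per 100 kb was 7.15, against 6.41, and for C/EBPα 7.66, against 5.86. The differences between the lists of genes were not tested. XBP1, a factor of the secretory stress response, had the most AhR peaks at 19, followed by NR1H4, the bile acid receptor, and TCF7L2, a Wnt effector, at 17 each. NR2F2, TBX3 and ATF5 had the fewest, at 4 each. Among 10 paralogs of the members, 9 had an AhR peak and the median was 3, with 10 at ONECUT2 and 7 at HNF4G, which the list of 15 also holds, 5 at PROX2, 1 at GATA3 and at FOXF1 and 0 at GATA2. Transcription factor genes of other lineages had an AhR peak in 12 of 20 cases, a C/EBPα peak in 18 and an H3K27ac region in 17, with medians of 2, 1 and 4. The largest AhR number among them was 6, at PAX5, a B cell factor, and GATA6 with 5 was the only one of the 8 genes below it. The paralogs and the other-lineage genes both include GATA1.

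**Figure D5:**
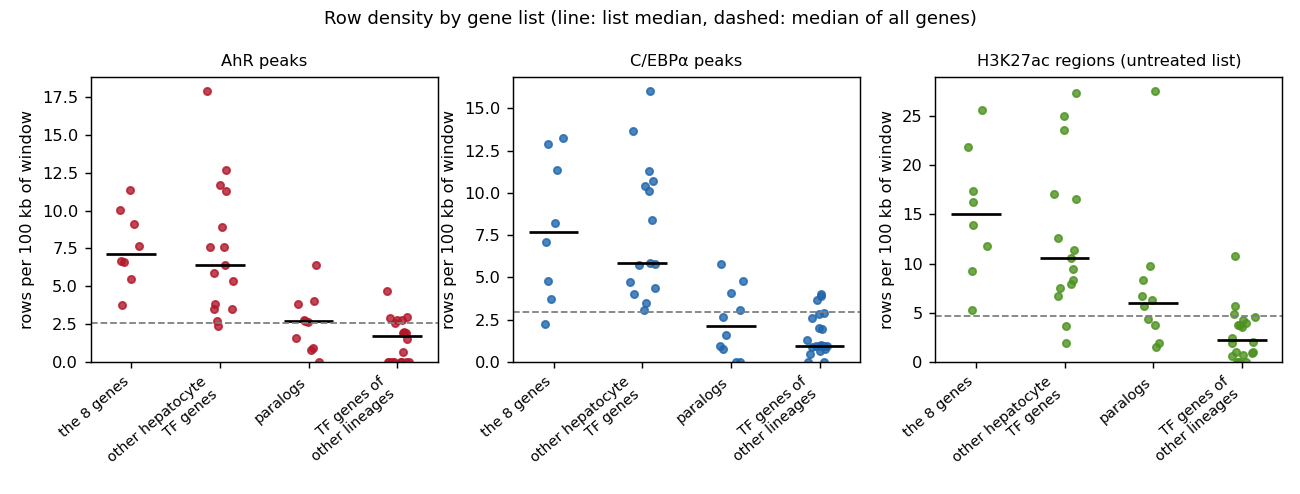
Rows per 100 kb of window for each gene (dots) of 4 lists of transcription factor (TF) genes, for AhR, C/EBPα and the first H3K27ac list. Black lines are list medians and the dashed line the median of all genes. The 8 genes have a median of 7.15 AhR peaks per 100 kb, against 2.58 over all genes.

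The genes most like each member over the 4 counts were found by distance on log2(count + 1), without regard to function. GREB1 came nearest to HNF4A, with 17 AhR peaks, 23 C/EBPα peaks and 40 regions in each H3K27ac list. YEATS4 came nearest to PROX1 (18, 18, 23 and 22), GSDMD to FOXA2 (8, 5, 16 and 16), and AKAP6 and CFL2 to FOXA1. ONECUT1 shared all 4 counts with RAD18, FOXA3 with 3 genes (BSPRY, DPT and ITGAE), GATA4 with 3 (ATF7, ATF7-NPFF and CHD1L) and GATA6 with 7, among them ARHGEF25, AURKAIP1 and B4GALNT1.

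H3K27ac regions of the first list within 50 kb of cell type markers were counted as a check of the cell line. Having a region did not separate cell types, since 90.4% of all genes had one. All 8 hepatocyte, 4 hepatoblast or liver cancer, 5 cholangiocyte, 5 endothelial and 5 leukocyte markers had one, and 3 of 5 stellate or fibroblast markers. In number, the median was 34.5 for hepatocyte markers, from 10 at APOA1 to 61 at ALB. It was 23 for the hepatoblast or liver cancer markers and 7 over all genes. The medians were 4 for 5 cholangiocyte markers, 2 for 5 leukocyte markers and 4 for 5 stellate or fibroblast markers, with 0 regions at DCN and LUM. The 5 endothelial markers had a median of 17, with 41 at PECAM1. A region within 50 kb can belong to a neighbouring gene, so the counts do not give expression of the gene named.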

How the data were processed

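The authors deposited 4 HepG2 peak lists with 5 columns (name, chromosome, start, end and sign) and other values, such as a count or score per library, are not in these lists. Per the submitters' processing notes, Bowtie2, HOMER and the build hg38 were used, and versions are missing there. Caller settings, filters and the peak sets merged into each list were not given in the sources used here.

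Genes and start sites came from RefSeq (GRCh38.p14), keeping protein-coding genes of the autosomes and X. A row counted for a gene when it lay within 50 kb of the gene body, and rows met with an overlap of at least 1 bp. A row is called merged at a merge number of 2 or more. The members and lists were chosen with earlier results of these data known, so no p-value is given. The planned test of B2-deficient against control libraries needs a value per library and was left out. Sequences of the peaks and exon structure were not analysed here.

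Named genes were all 8 members, and in other lists at most the 3 with most and the 3 with fewest AhR peaks. Named sites were, per member, the AhR peak that met both lists with the highest merge number nearest the gene, and peaks within 1 kb of a gene end. Sites and genes outside these rules were picked with their values in view. The counting of peaks in windows and of overlaps was tested on simulated data and was right for 300 of 300 windows and 2000 of 2000 peaks. Shares carry 95% Wilson intervals (SciPy 1.17.1), which cover counting error only. Tables were joined with pandas 2.3.3 and NumPy 2.4.6 under Python 3.11.15, and figures drawn with Matplotlib 3.10.9.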

Additional observations from a re-analysis of the deposited data

How the results depend on the processing

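Of 45 alternative values, 28 stayed within 1.5 times the reported count or inside the 95% Wilson interval of the reported share, and 17 did not. The counts changed by construction with the window or with fewer rows. The 85 AhR peaks became 53 within 10 kb, 36 in the gene bodies, 131 within 100 kb and 41 with merged peaks only. The 90 C/EBPα peaks became 47, 32, 138 and 59. The 164 H3K27ac regions became 95, 53 and 261 in the 3 windows, and the 158 of the inhibitor experiment 94, 53 and 253. Counting a row only for its nearest gene gave lower counts of 67, 60, 120 and 116. With merged rows only, AhR peaks met an H3K27ac region in 87.8% and both lists in 46.3%. The share of H3K27ac regions with identical coordinates in the inhibitor list was 98.9% within 10 kb, where 94 of 95 regions were shared. The cause of these 3 changes in share was not tested. Overlap rules, the inhibitor list and peaks beyond 3 kb of gene ends left the other shares within their intervals. No paired analysis was possible because the lists carry no value per library, and for the same reason no library could be left out. Depth is unknown and sets no precision here.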

Other observations

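GATA5, a paralog chosen after its values were seen, had 31 H3K27ac regions within 50 kb in the first list and 34 in the inhibitor list, more than 7 of the 8 genes, but 3 AhR peaks and 0 C/EBPα peaks. HNF4G, the paralog of HNF4A, showed the reverse balance, with 7 AhR peaks, 8 C/EBPα peaks and 5 H3K27ac regions in the first list.

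Long non-coding RNA genes beside the members held part of their rows. HNF4A-AS1 held 2 AhR peaks, 5 C/EBPα peaks and 6 H3K27ac regions of HNF4A. PROX1-AS1, which overlaps the lower end of PROX1, held 4 AhR peaks, 5 C/EBPα peaks and 7 H3K27ac regions. GATA6-AS1, on the upstream side of GATA6, held 0 rows of each list. It lies within 3 kb of the GATA6 start, where the H3K27ac lists hold few regions at any gene. The lack of an H3K27ac region there says nothing about acetylation.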
